A study of Homo sapiens with 32 samples.

Results

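The genes described here are 10 enzymes of triglyceride synthesis and of the acyl-CoA supply that feeds it, namely DGAT1, DGAT2, GPAM, LPIN1, LPIN2, LPIN3, ACSL1, ACSL3, ACSL4 and ACSL5. They were chosen with earlier results of these data known, and their features were taken by gene symbol. The features were every transcript cluster (the gene-level unit of an exon array) and every probe set (its exon-level unit) annotated with these names. Of the 10 genes, 6 had a transcript cluster of their own among 16309 clusters, 2 shared a cluster with other symbols, and 9 had probe sets, 213 of 620335 in all. DGAT1 had neither and was not analysed here. The cells were LNCaP, an established line of androgen-responsive prostate cancer cells, and all were first kept for 72 hours in RPMI-1640 with charcoal-stripped serum, which removes steroids. The control group, called steroid-deplete, had 4 arrays, and the treated group had 4 arrays from cells given 10 nM R1881, a synthetic androgen, for 24 hours. Both groups are the same line, with no genetic change between them, and the labels name no vehicle for the controls. The study's methods describe a quadruplicate experiment, without saying whether the 4 cultures of a group were grown apart, so the p-values measure the spread between these arrays.

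A fatty acid enters lipid synthesis only after an acyl-CoA synthetase, such as the long-chain ACSL enzymes, has joined it to coenzyme A. GPAM, the mitochondrial glycerol-3-phosphate acyltransferase, places the first acyl chain on glycerol 3-phosphate. Further acylation gives phosphatidate, lipins (LPIN1, LPIN2, LPIN3) remove its phosphate to give diacylglycerol, and DGAT1 or DGAT2 adds the last chain to make triglyceride, which cells store in lipid droplets. Diacylglycerol and phosphatidate are also the branch points to membrane phospholipids.

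Promoter sequences are shown first for ACSL3, which had the largest rise, for GPAM, which fell, and for the starts of ACSL1 that matched an androgen receptor half-site or a sterol element. They are RefSeq windows of 250 bases before the annotated start on build GRCh38.p14, which is not the hg18 build of the arrays. Of the 10 genes, 7 had windows that were used here, with 15 windows among them. Windows that were short or held other letters were left out, and DGAT1 was left out of the search. No window of DGAT2 or LPIN3 was at hand, so neither gene was searched. The first line is ACSL3, at chr2:222860786-222861035 on the plus strand, and the second is GPAM, at chr10:112183766-112184015 on the minus strand. The last pair are starts of ACSL1 at chr4:184812252-184812501 and chr4:184805554-184805803, both on the minus strand. Each is written in the direction of its gene, and capitals mark a match to a motif on either strand.
ACSL3: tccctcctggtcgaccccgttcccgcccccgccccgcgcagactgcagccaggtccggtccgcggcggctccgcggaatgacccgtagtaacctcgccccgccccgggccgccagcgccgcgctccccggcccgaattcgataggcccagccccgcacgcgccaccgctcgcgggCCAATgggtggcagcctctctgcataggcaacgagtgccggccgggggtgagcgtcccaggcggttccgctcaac
GPAM: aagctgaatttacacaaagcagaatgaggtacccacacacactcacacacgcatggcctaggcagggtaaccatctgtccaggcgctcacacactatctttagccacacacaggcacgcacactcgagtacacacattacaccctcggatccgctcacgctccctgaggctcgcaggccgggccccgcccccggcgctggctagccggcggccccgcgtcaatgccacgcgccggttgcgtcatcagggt
ACSL1, first window: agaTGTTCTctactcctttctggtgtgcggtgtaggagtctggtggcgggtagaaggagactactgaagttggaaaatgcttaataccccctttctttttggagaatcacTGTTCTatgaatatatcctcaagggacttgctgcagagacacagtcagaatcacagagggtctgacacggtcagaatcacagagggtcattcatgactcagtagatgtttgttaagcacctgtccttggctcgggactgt
ACSL1, second window: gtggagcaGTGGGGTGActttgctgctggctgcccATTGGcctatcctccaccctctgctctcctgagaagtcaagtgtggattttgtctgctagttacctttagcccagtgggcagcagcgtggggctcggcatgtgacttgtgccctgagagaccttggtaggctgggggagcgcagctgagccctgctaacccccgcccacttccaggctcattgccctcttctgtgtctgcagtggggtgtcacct
The motifs searched were the androgen receptor half-site AGAACA, the full element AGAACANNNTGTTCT, which contains the half-site on both strands, the CCAAT box CCAAT and the sterol regulatory element TCACNCCAC. Among 35114 windows of this length the half-site was present in 12.4%, the full element in 0.00285%, the CCAAT box in 32% and the sterol element in 0.883%. The half-site was in 2 of the 15 windows, with 2 matches in the first ACSL1 window and 1 match in a window of ACSL5, and the full element was in 0. The CCAAT box was in ACSL3, starting 75 bases before the start, and in the second ACSL1 window, which also held the 1 sterol element. The windows of GPAM, ACSL4, LPIN1 and LPIN2 held none of these letters, nor did the other windows of ACSL1 and ACSL5. ACSL1 had more windows than any other of these genes. These matches describe the sequence only.

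The arrays carried the labels' cell type. Of 10 markers of LNCaP cells, 5 had a cluster of 1 symbol, and all 5 lay above the median level of all clusters, with KLK3 rising by 1.82 on the log2 scale. None of 4 measured adipocyte markers lay above it, and 1 of 5 did in each of the fibroblast, immune and endothelial lists. The summed linear level of the adipocyte list was 115 to 132 in steroid-deplete and 121 to 151 in R1881, and that of the immune list was 148 to 172 and 182 to 198. Within the immune list CD68 was at a mean log2 level of 6.95 and rose by 0.35 (adjusted p = 0.0049 in limma), CD14 was at 5.01, CD3E at 3.32, PTPRC at 2.27 and LYZ at 2.24, and the summed level did not overlap between the groups. The part of other cells in the results was not tested. On the second principal component 2 arrays stood apart from the other 6, which lay between -12.5 and 0, namely replicate 1 of the steroid-deplete arrays at 13.5 and replicate 4 of R1881 at 17.6.

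At gene level, DGAT2 and GPAM fell and LPIN1 rose after R1881. Values are RMA values on the log2 scale, in which a difference of 1 is a 2-fold change, and a feature was called when limma gave an adjusted p under 0.005 over all features and the change was at least 2-fold. Of the 6 genes with a cluster of their own, 1 was called higher and 2 were called lower, where 1.94% of all clusters were called higher and 2.04% lower (317 and 333 clusters). Centring of the arrays on their medians gave 372 and 259, and Iter-PLIER values with log2(value + 16) gave 444 and 924, with 3 of the 6 genes called in both. At an adjusted p under 0.05 with no fold limit, 2 were higher and 3 lower, against 10.5% and 19.8% of all clusters. Without both of the arrays that stood apart, 3 of the 6 were called. In RNA from whole cultures, fewer cells with a transcript and less of it per cell cannot be told apart. The groups did not overlap for 5 of the 6 genes, 2 higher and 3 lower, where 11.2% of all clusters lay apart as higher and 18.7% as lower. For each of the 5 the exact two-sided permutation test gave p = 0.0286, the smallest that 4 arrays against 4 allow.

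**Figure D1:**
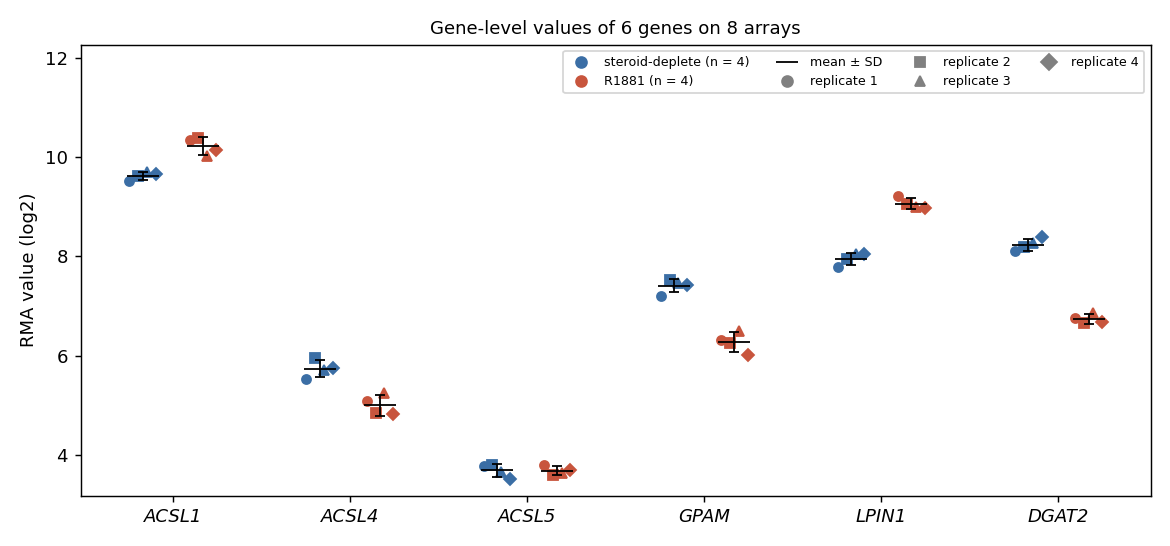
Gene-level RMA values (log2) of the 6 genes with a cluster of their own on each of 8 arrays, with the mean and SD of each group (n = 4). The groups are apart for every gene but ACSL5, with R1881 below for ACSL4, GPAM and DGAT2 and above for ACSL1 and LPIN1.

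Of the acyl-CoA ligases, ACSL3 gave the largest change of all the genes described here. ACSL3 is a ligase of the endoplasmic reticulum and of lipid droplets. It had no cluster of its own symbol, so its value was taken as the median of its 21 probe sets on each array, a measure added after the data had been seen and fitted with limma over 15333 genes with 5 or more probe sets. By this measure 2 of the 9 genes with probe sets were called higher and 3 lower, against 2.17% and 2.73% of all genes. The groups did not overlap for 5 of the 9, 3 higher and 2 lower, against 8.8% and 15% of all genes.

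In steroid-deplete cells the ACSL3 median was 8.5, 8.98, 8.87 and 8.79 on replicates 1 to 4. After R1881 it was 11.61, 11.85, 11.42 and 11.27. The groups lay far apart, with every R1881 array above every steroid-deplete array. ACSL3 rose by 2.75 ± 0.16 (SE, n = 4 per group) on the log2 scale, which is 6.73-fold, with an adjusted p of 6.53e-08. It ranked 30th of 15333 genes by its rise. Leaving out any 1 array kept the rise between 2.64 and 2.84.

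**Figure D2:**
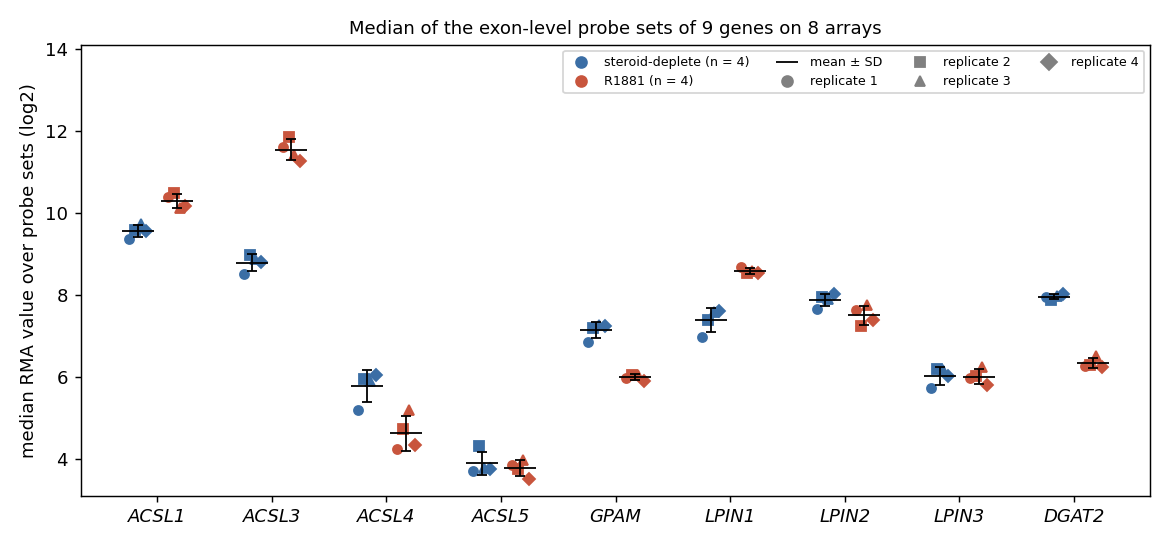
Median RMA value (log2) over the exon-level probe sets of 9 genes on each of 8 arrays, with the mean and SD of each group (n = 4). ACSL3 moves from 8.79 to 11.54, while the groups of ACSL4, ACSL5, LPIN2 and LPIN3 overlap.

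The probe sets of ACSL3 rose together, though not equally. Of its 21 probe sets, 20 were called higher and the last, 2529547, rose by 0.85 with an adjusted p of 0.0461. Across all probe sets 0.679% were called higher and 0.657% lower. At an adjusted p under 0.05 with no fold limit 1.65% of all probe sets were higher and 2.4% lower, and at an unadjusted p under 0.05 the shares were 6.15% and 9.47%. Probe set 2529568 rose most, from 7.34, 8.10, 7.92 and 7.79 to 11.18, 11.37, 11.36 and 10.86. Probe set 2529547 had the lowest number of the set and went from 6.61, 6.52, 6.69 and 7.04 to 7.36, 7.65, 7.41 and 7.86, so that its groups also did not overlap.

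Set against the median of the gene's own probe sets on the same array, 3 ACSL3 probe sets rose less than the gene. These were 2529547, with a difference of -1.90 ± 0.23 (SE, adjusted p = 0.00754 in limma), 2529588, with -0.99 ± 0.13 (adjusted p = 0.0119), and 2529585, with -0.76 ± 0.16 (adjusted p = 0.0622). The limit here was an unadjusted p of 0.001 or less, which 0.834% of 173196 probe sets passed as higher and 0.643% as lower.

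In ACSL3 the probe sets at a higher level mostly rose less. Probe sets 2529588 and 2529585 had the highest means of the gene, 12.10 and 12.03, and both reached about the same level after R1881, 12.98 ± 0.12 and 13.03 ± 0.09 (SD, n = 4). The 6 called probe sets with a mean over 11 rose by 1.76 to 2.61, and the other 14 by 2.5 to 3.4. The highest value of any probe set on an array was between 13.92 and 14.19. The part of the array's upper range in this was not tested. Probe set 2529547 was the dimmest of the gene, with a mean of 7.14, and stands outside that order.

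**Figure D3:**
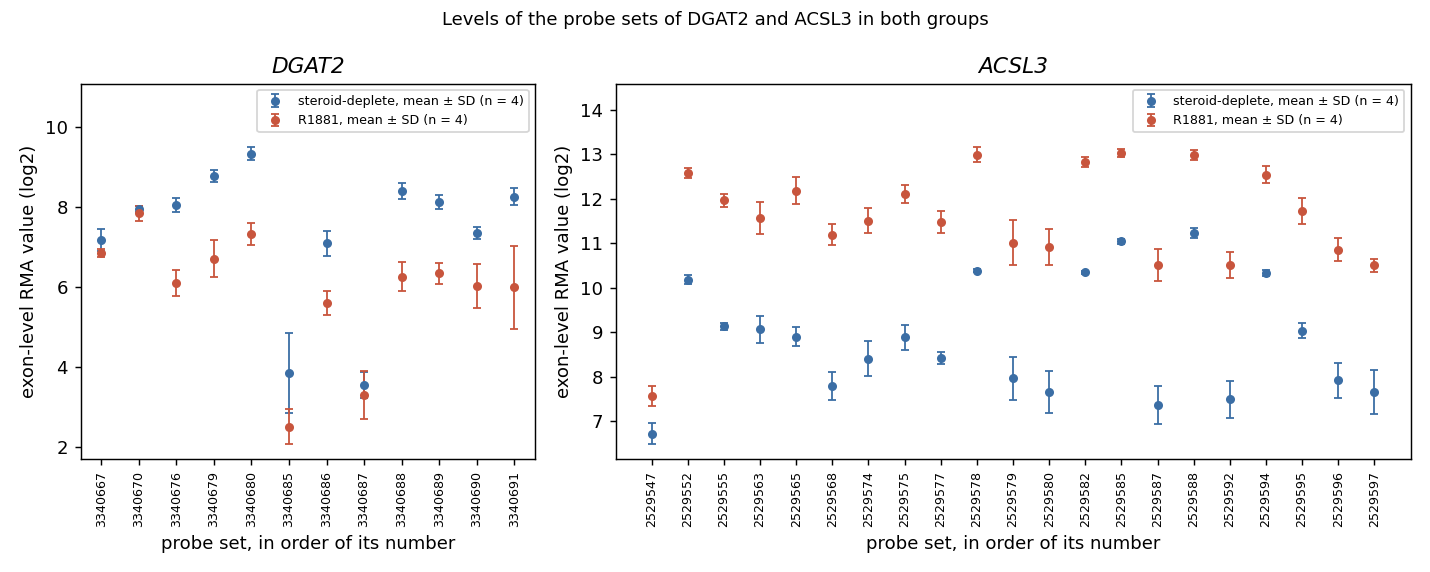
Exon-level RMA values (log2, mean and SD, n = 4 per group) of the 12 DGAT2 and 21 ACSL3 probe sets in order of their numbers. For DGAT2 the groups meet at 3340667 and 3340670 and part at most others, and for ACSL3 they are closest at 2529547.

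ACSL1, the main ligase of adipose tissue, heart and liver, rose by less than 2-fold. Its gene-level value was 9.51, 9.62, 9.70 and 9.66 in steroid-deplete cells. It was 10.35, 10.39, 10.01 and 10.14 after R1881. Every R1881 array was above every steroid-deplete array, and the rise of 0.60 ± 0.10 (SE, n = 4) had an adjusted p of 0.000295 in limma but was 1.52-fold and so not called. The median of its 24 probe sets rose by 0.73 ± 0.13 (SE), with an adjusted p of 0.00154. None of the 24 probe sets was called alone by limma. As higher, 2 passed an adjusted p of 0.05, which 1.65% of all probe sets did, and 19 an unadjusted p of 0.05, which 6.15% did. Their changes had a median of 0.60, which is close to the gene-level value.

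ACSL4, a ligase that prefers arachidonic acid, went the other way. Its gene-level value was 5.54, 5.96, 5.72 and 5.76 in steroid-deplete cells and 5.10, 4.84, 5.26 and 4.83 after R1881. The mean level was at percentile 32.2 of all clusters, below their median of 6.33. The groups did not overlap, and the fall by 0.74 ± 0.12 (SE, n = 4) on the log2 scale had an adjusted p of 0.000237 in limma, at 1.67-fold. The median of its 21 probe sets fell by 1.15 ± 0.23 (SE) on the log2 scale and was called, with an adjusted p of 0.00265, but here the groups overlapped (exact permutation p = 0.0571, two-sided). The overlap came from steroid-deplete replicate 1, at 5.19, and R1881 replicate 3, at 5.19. Without any 1 of 6 arrays (steroid-deplete replicates 2, 3 and 4 and R1881 replicates 1, 2 and 4) the adjusted p was between 0.00596 and 0.0109 and the call was lost, with the fall between 1.03 and 1.19 on the log2 scale. Of the 21 probe sets, 6 were lower at an adjusted p under 0.05, against 2.4% of all probe sets. None was called by limma, with 15 lower at an unadjusted p under 0.05, against 9.47%. Probe set 4017869, the highest numbered, was at 6.62 ± 0.60 and 6.57 ± 0.46 (SD, n = 4), with no detectable change.

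ACSL5, known from intestine and liver, showed no detectable difference between the groups. Its gene-level value was 3.78, 3.81, 3.66 and 3.53 in steroid-deplete cells and 3.81, 3.61, 3.64 and 3.71 after R1881. The groups overlapped fully, with a difference of -0.003 ± 0.09 (SE, n = 4) and a 95% interval from -0.19 to 0.19, against a median level of 6.33 over all clusters. Its mean level was at percentile 12.4 of all clusters. Iter-PLIER values gave -0.47 with log2(value + 16) and -0.67 with log2(value + 1), both outside that interval, with adjusted p of 0.107 and 0.125 in limma. Of its 26 probe sets, 7 reached the median level of all probe sets, 4.65, and 0 passed an adjusted p of 0.05 in limma, with 1 at an unadjusted p under 0.05.

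ACSL1 and ACSL4 differed from each other in their response. The difference between 2 genes was taken within each array, which gave 3 pairs at gene level. ACSL1 and ACSL4 differed by 1.34 ± 0.18 (SE) in log2 fold change, ACSL1 and ACSL5 by 0.60 ± 0.13, and ACSL4 and ACSL5 by -0.74 ± 0.15. The pairs with ACSL5 rest on a gene at that low level and say little of its own response. ACSL4 was also below the median level of all clusters. Each pair had an exact permutation p of 0.0286 (two-sided), also 0.0286 after adjustment over the 3 pairs, with no overlap between groups. From the medians of probe sets, the log2 fold change of ACSL1 less that of ACSL3 was -2.02 ± 0.09 (SE), and that of ACSL3 less that of ACSL4 was 3.9 ± 0.27. The exact permutation p was 0.0286 for each of the 9 pairs tested in this way within the ligases and lipins, and 0.0286 after adjustment.

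GPAM, which commits acyl-CoA to glycerolipids, fell. Its gene-level value was 7.21, 7.52, 7.47 and 7.43 in steroid-deplete cells. It was 6.32, 6.25, 6.50 and 6.02 after R1881, so that the groups were apart by more than the spread of either. The mean went from 7.41 ± 0.13 to 6.27 ± 0.20 (SD, n = 4). GPAM fell by 1.14 ± 0.11 (SE) on the log2 scale, 2.20-fold, with an adjusted p of 2.27e-06 in limma. The median of its 27 probe sets fell by 1.14 ± 0.13 (SE) on the log2 scale.

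The fall of GPAM was spread over its probe sets. Of the 27, 17 were lower at an adjusted p under 0.05, where 2.4% of all probe sets were, and 2 of these, 3307019 and 3307022, were called. Both calls were lost when any 1 array was left out, with the adjustment over 620335 probe sets, and Iter-PLIER values gave 12 calls. The changes ran from -1.91 to 0.05, with a median of -1.13. The probe set at 0.05, 3307015, had a mean of 3.71 and was below the median level of all probe sets. Of 23 GPAM probe sets that could be set against the gene, 0 differed from it at p of 0.001 or less in limma and 4 at an unadjusted p under 0.05, which 13.4% of all probe sets in that test passed.

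LPIN1, a phosphatidate phosphatase that also acts as a transcriptional co-regulator, rose. Its gene-level value was 7.79, 7.94, 8.04 and 8.05 in steroid-deplete cells. It was 9.21, 9.05, 8.99 and 8.97 after R1881. All 4 R1881 arrays lay above all controls. LPIN1 rose by 1.10 ± 0.09 (SE, n = 4), 2.14-fold, with an adjusted p of 5.62e-07 in limma. By the median of its 28 probe sets it rose by 1.19 ± 0.15 (SE).

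Of the 28 LPIN1 probe sets, 18 were higher at an adjusted p under 0.05, where 1.65% of all probe sets were, and 4 were called. Without any 1 array, at most 1 was called, and Iter-PLIER values gave 11 calls. The 4 called were 2469950, with 1.66, 2469973, with 1.43, 2469980, with 1.42, and 2469958, with 1.13. The 2 probe sets with the lowest numbers, 2469930 and 2469932, had values of -0.47 and -0.48 with adjusted p of 0.711 and 0.393, at means of 4.76 and 4.56. On 2469930 the R1881 arrays ran from 3.15 to 5.68, around the steroid-deplete arrays at 4.85 to 5.29. Neither passed the filters of the test against the gene, and of the 22 that did, 0 passed p of 0.001 in limma and 4 had an unadjusted p under 0.05, against the same 13.4%.

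LPIN2 and LPIN3 encode the other lipins of the family, and neither was called. The median of the 27 LPIN2 probe sets was 7.66, 7.95, 7.89 and 8.01 in steroid-deplete cells. It was 7.62, 7.23, 7.76 and 7.38 after R1881. Replicate 1 of the controls lay below replicate 3 of R1881, so that the groups overlapped. The difference of -0.38 ± 0.15 (SE) had an adjusted p of 0.0903 in limma. All 27 LPIN2 probe sets were at or above the median level, and none was called or passed an adjusted p of 0.05 in limma, while 8 were lower at an unadjusted p under 0.05, against 9.47% of all probe sets. The changes ran from -0.65 to 0.04. Cluster 3796335, annotated to LPIN2 together with CHORDC1 and CHORDC1P4, had a difference of -0.33 ± 0.09 (SE, adjusted p = 0.0142 in limma) and cannot be given to 1 of these genes.

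The LPIN3 median was 5.72, 6.20, 6.17 and 6.03 in steroid-deplete cells and 5.98, 6.02, 6.24 and 5.80 after R1881. The groups overlapped, and the difference of -0.02 ± 0.15 (SE) had a 95% interval from -0.34 to 0.29. Of 27 probe sets, 1 was lower at an adjusted p under 0.05, where 2.4% of all probe sets were. This was 3885678, which went from 5.28, 5.22, 5.78 and 6.11 to 4.68, 4.25, 4.11 and 4.39. Its R1881 mean, 4.36, was below the median level of all probe sets, 4.65. That probe set stood apart from the median of the gene's probe sets by -1.22 ± 0.26 (SE), with an adjusted p of 0.0671 in limma. It passed the limit of that test, an unadjusted p of 0.001 or less, which 0.643% of probe sets passed as lower. Cluster 3906129, annotated to EMILIN3 and LPIN3, had a difference of 0.06 ± 0.08 (SE), which was -0.37 and -0.46 in Iter-PLIER values with log2(value + 16) and log2(value + 1), none of them called. LPIN1 rose more than LPIN2 by 1.57 ± 0.13 (SE) and more than LPIN3 by 1.22 ± 0.13, with no overlap of the within-array differences between groups. LPIN2 and LPIN3 differed by -0.35 ± 0.12.

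**Figure D4:**
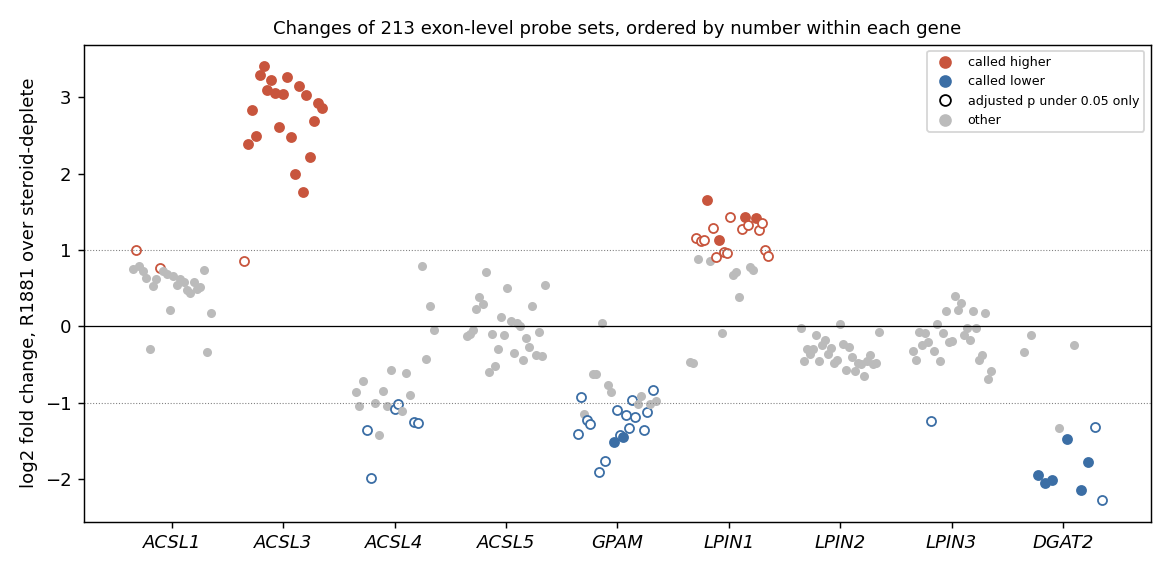
Log2 fold change (R1881 over steroid-deplete, 4 arrays each) of the 213 probe sets of 9 genes, in order of their numbers within each gene. Filled points are called, 24 higher in ACSL3 and LPIN1 and 8 lower in GPAM and DGAT2, open points pass an adjusted p of 0.05 only, and dotted lines mark 2-fold.

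DGAT2, which makes triglyceride from newly formed fatty acids, had the largest fall at gene level among the 6 genes with a cluster of their own. Its value was 8.10, 8.18, 8.26 and 8.39 in steroid-deplete cells. It was 6.77, 6.65, 6.86 and 6.67 after R1881. The groups were far apart, against SDs of 0.12 and 0.10. DGAT2 fell by 1.498 ± 0.088 (SE, n = 4) on the log2 scale, 2.82-fold, with an adjusted p of 2.04e-08 in limma. The size of the fall was larger in Iter-PLIER values, with changes of -2.26 for log2(value + 16) and -2.40 for log2(value + 1). By the median of its 12 probe sets it fell by 1.63 ± 0.12 (SE) on the log2 scale.

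The probe sets of DGAT2 held some that followed the gene and 2 above the median level that did not pass the test. Of the 12, 6 were called lower, with changes from -2.15 to -1.48, and 2 more, 3340690 and 3340691, passed an adjusted p of 0.05. Probe set 3340680, one of the 6, went from 9.12, 9.45, 9.34 and 9.45 to 7.25, 7.39, 7.67 and 7.01. Probe set 3340691 had the largest value, -2.27, and its R1881 arrays were the most spread, with replicate 4 at 4.47 and the others between 6.31 and 6.77.

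The 2 lowest-numbered DGAT2 probe sets, 3340667 and 3340670, were the exceptions. Probe set 3340670 was at 8.07, 7.91, 7.97 and 7.89 in steroid-deplete cells and at 8.14, 7.73, 7.78 and 7.75 after R1881, so that the groups overlapped. Probe set 3340667 was at 7.43, 6.92, 6.98 and 7.41 and then at 6.90, 6.91, 6.70 and 6.88, with the R1881 values just below. Their changes were -0.11 (adjusted p = 0.853 by limma) and -0.34 (adjusted p = 0.479). Their means over all arrays were 7.90 and 7.02, against a median level of 4.65 over all probe sets.

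Each probe set was also compared with the gene-level value of its own array, over 143019 probe sets that passed limits on level and on the change of the gene, with an unadjusted p of 0.001 or less as the limit for a call. Of 98 probe sets of these genes that could be tested, 2 were called, both higher and both of DGAT2, where 0.942% of all were called higher and 0.841% lower. Relative to DGAT2, 3340670 was higher by 1.39 ± 0.15 (SE, adjusted p = 0.00227 in limma) and 3340667 by 1.16 ± 0.17 (SE, adjusted p = 0.0116). Both also passed when the gene value was the median of the gene's own probe sets, and leaving out any 1 array kept the differences at 1.30 to 1.47 and 1.09 to 1.29. The exons that these probe sets lie in were not analysed here. Probe sets 3340685 and 3340687, the other 2 that did not pass an adjusted p of 0.05, had means of 3.19 and 3.43, below the median level of all probe sets.

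Other genes of the pathway were read from 7 lists with 117 names, of which 88 had a cluster of 1 symbol. Of these, 3 were called higher and 2 lower, against 1.94% and 2.04% of all clusters, and 15 and 13 passed an adjusted p of 0.05, which 10.5% and 19.8% of all clusters did, with a median change of 0.04 against -0.003 over all clusters. Among the other acyltransferases that make lysophosphatidate, the step of GPAM, and phosphatidate, the step after it, 8 of 9 were measured and none was called. AGPAT1 fell by 0.49 ± 0.09 (SE) and AGPAT2 by 0.45 ± 0.10 on the log2 scale. GPAT4, an endoplasmic reticulum enzyme with the same reaction as GPAM, rose by 0.43 ± 0.10 (adjusted p = 0.0039 in limma), and was named here after its value was seen because it completes the 3 of that list past an adjusted p of 0.05.

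Of 18 measured further acyl-CoA synthetases, SLC27A2, a very long-chain synthetase that also takes up fatty acids, fell most. It went from 7.80, 8.04, 7.82 and 7.86 to 6.08, 5.67, 6.30 and 5.65, so that it fell by 1.96 ± 0.13 (SE) on the log2 scale, with an adjusted p of 9.5e-08 in limma. The groups were far apart. ACSM1, a medium-chain synthetase, rose by 0.91 ± 0.09 and ACSF2 fell by 0.74 ± 0.11 on the log2 scale, neither past 2-fold, while ACSF2 by the median of its probe sets fell by 1.00 ± 0.14 and was called. Of 5 measured acylglycerol and sterol acyltransferases, SOAT1, which esterifies cholesterol, rose by 0.37 ± 0.13 (adjusted p = 0.0399 in limma) and the other 4 did not pass an adjusted p of 0.05.

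In the phospholipid branch, 21 of 27 genes were measured. CHKA, a choline kinase, rose by 1.22 ± 0.14 (SE), from 6.29, 6.80, 6.81 and 6.60 to 7.63, 8.09, 8.07 and 7.62. DGKA and DGKH, kinases that turn diacylglycerol back to phosphatidate, moved in opposite directions, as DGKA rose by 1.02 ± 0.09 and DGKH fell by 1.51 ± 0.12 on the log2 scale. By the median of probe sets DGKA rose by 0.69 and was no longer past 2-fold. PLPP2, a lipid phosphatase, fell by 0.61 ± 0.08 on the log2 scale, and PCYT1A, of phosphatidylcholine synthesis, rose by 0.41 ± 0.10.

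None of 18 measured genes of lipid droplets and triglyceride hydrolysis was called at gene level, where 1.94% of all clusters were called higher and 2.04% lower. At an adjusted p under 0.05 with no fold limit, 4 of the 18 were higher and 3 lower, against 10.5% and 19.8% of all clusters. HSD17B11, a droplet-associated dehydrogenase, rose by 0.94 ± 0.14 (SE), and PNPLA3, a lipase of the droplet surface, fell by 0.50 ± 0.12 on the log2 scale. By the median of its probe sets PNPLA3 fell by 1.13 ± 0.18 on the log2 scale and was called (adjusted p = 0.000557 in limma). For the supply of glycerol 3-phosphate, 6 of 10 genes were measured, and GPD1L fell by 0.90 ± 0.13 and GPD2 by 0.61 ± 0.10 on the log2 scale. In the list of acyl-CoA use, DBI, the acyl-CoA binding protein, rose by 2.73 ± 0.13 (SE) at gene level, from 7.63, 7.76, 7.86 and 7.57 to 10.25, 10.85, 10.23 and 10.42. The median of its probe sets rose by 0.45 ± 0.13 (adjusted p = 0.0232 in limma) and was not called. ACOT9, an acyl-CoA thioesterase, rose by 0.58 ± 0.11 and ACBD3 by 0.23 ± 0.08.

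**Figure D5:**
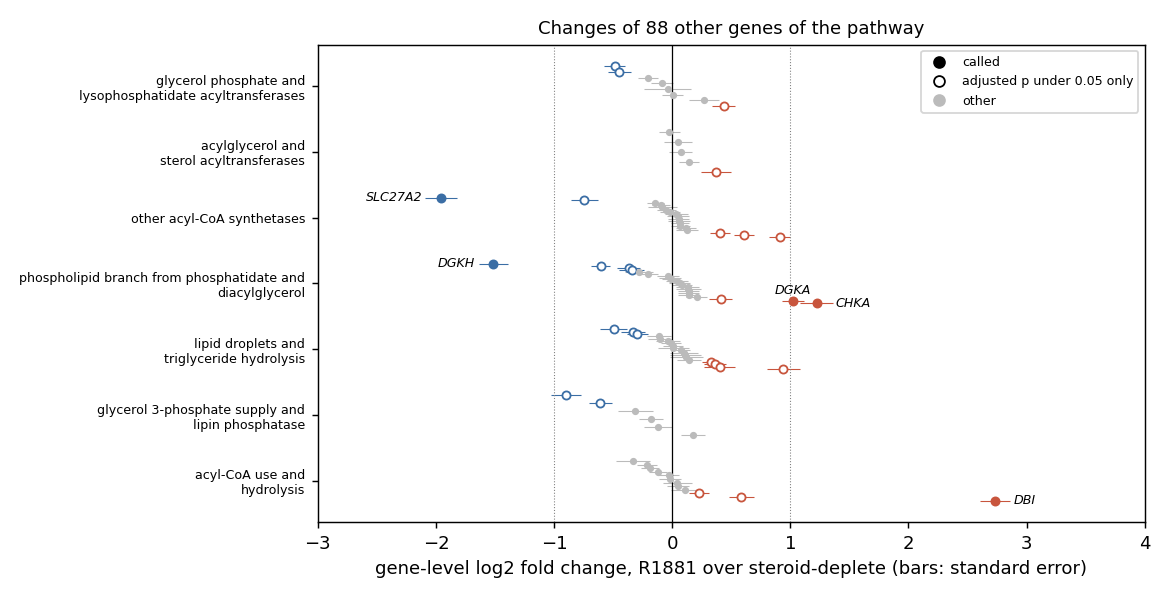
Gene-level log2 fold change (R1881 over steroid-deplete) with its standard error for 88 genes in 7 lists. The 5 called genes are filled and named, 3 to the right of the 2-fold line and 2 to the left, and most others lie near 0.

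The clusters whose values over the 8 arrays were most like those of the 3 genes with the largest gene-level changes were found by the root mean square difference of log2 values, each gene centred on its own mean, among 13339 genes. For DGAT2 the nearest was TNIK, at 0.058, followed by ASAP2 and GATA2, with log2 changes of -1.47, -1.45 and -1.48. For GPAM it was EPHA3, at 0.053, followed by TPCN1 and FBXO15, with -1.11, -1.17 and -1.14. For LPIN1 it was TMEM87B, at 0.062, followed by SHROOM3 and COPG1, with 1.16, 1.18 and 1.06. This distance depends largely on the change between the 2 groups, and shared regulation was not tested.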

How the data were processed

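RNA from LNCaP cells was hybridised to 8 Human Exon 1.0 ST arrays, each deposited as 4 summaries. The authors computed gene-level log2 values by RMA from core probe sets, corrected with antigenomic probes and quantile-normalised, and exon-level log2 RMA values of extended probe sets were deposited as well. The deposited Iter-PLIER intensity values, on a linear scale, served as an alternative, although the methods give PLIER, not Iter-PLIER, for exon level. The submitters' processing notes name hg18. No detection p-values were used, and the number of arrays limits the precision.

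Groups came from the labels. Symbols came from platform annotation and were updated through a RefSeq table, which changed 20 clusters and 33730 probe sets, and features with several symbols named no gene. Values were compared with limma 3.58.1 in R 4.3.3 (lmFit and eBayes, Benjamini-Hochberg adjustment over all features). Probe sets were set against the gene-level value of the same array after limits on the change of the gene (10-fold), the distance from it (5-fold) and the level (4.65). Single genes and pairs of genes were compared by exact permutation. The study's plain test was kept as the methods' t-test among the alternatives.

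All 10 members were named, with up to 3 highest and lowest probe sets that differed from their gene, every called list gene and up to 2 more per list at an adjusted p under 0.05. Where a symbol had several clusters, the one with the highest mean stood for it. Other probe sets were named after their values were seen. Members and lists were chosen with earlier results of these data known. The medians of probe sets were added with the data in view. Simulated data with known changes were used to test the fits. Alternatives were other summaries, scalings, filters and limits, the replicate number as a block, and leaving out arrays.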

Additional observations from a re-analysis of the deposited data

How the results depend on the processing

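DGAT2, GPAM and LPIN1 kept their direction and their call in all 19 alternatives run for them, 1 of which took the median of probe sets in place of the gene-level value, the count of called genes stayed at 3 without any 1 array, and the paralog differences ran from 1.23 to 1.49, 0.52 to 0.67 and -0.84 to -0.67 without any 1 array. At a limit of 1.5-fold the count was 5, since ACSL1 and ACSL4 passed as well, and ACSL4 was also called at -1.18 from Iter-PLIER with log2(value + 1). With log2(value + 16) Iter-PLIER gave paralog differences of 1.65 for ACSL1 and ACSL4 and 1.11 for ACSL1 and ACSL5, and the medians of probe sets gave 1.89, 0.84 and, for ACSL4 and ACSL5, -1.04. List genes called numbered 12 from Iter-PLIER with either pseudocount and 13 at 1.5-fold, against 5, and 4 to 6 without any 1 array. The causes were not tested.

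The probe sets called among these genes numbered 51 from Iter-PLIER, 49 among probe sets at or above the median level, where fewer were tested, 25 to 26 without any 1 array, and 21 without steroid-deplete replicate 1 and R1881 replicate 4 together, against 32, and ACSL3 kept 20 called probe sets without any 1 array. Over all clusters, 444 were higher and 924 lower from Iter-PLIER with log2(value + 16), 480 and 1142 with log2(value + 1), and 678 and 1161 at 1.5-fold, against 317 and 333. Over all probe sets, 6105 were higher and 6989 lower from Iter-PLIER and 5710 and 6586 at or above the median level, against 4211 and 4073, with 2486 to 3187 and 1745 to 2535 without any 1 array and 1675 and 1153 without both. Relative to the gene, Iter-PLIER called 4808 probe sets in place of 2550, and the count for these genes stayed at 2 without any 1 array.

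Arrays of one number did not deviate together. Their correlations over clusters were 0.068, 0.095, -0.101 and -0.060 for numbers 1 to 4, 1 of 8 arrays correlated best with its own number, and the numbers were not used as pairs. With the replicate block the counts were 3 genes, 5 list genes, 5 genes by the median of probe sets and 2 relative probe sets, as without it. Probe sets called among these genes were then 24, none of them in GPAM or LPIN1, and over all probe sets 1983 were higher and 1546 lower.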

Other observations

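By the median of probe sets, 101 of the 117 list genes were measured, and 2 of them were called higher and 4 lower, where 2.17% and 2.73% of all genes were. Their median change was 0.02 against -0.03 over all genes. PLPP1, a lipid phosphate phosphatase of the cell membrane that had no cluster of its own, was one of the 2 that rose, by 1.36 ± 0.13 (SE, adjusted p = 6.58e-06 in limma). PNPLA3 and ACSF2, given above, were among the 4. These 3 genes were picked out after their values were seen. AGPAT2, SOAT1 and ACBD3, which passed an adjusted p of 0.05 in limma at gene level, did not pass it by this measure. The same held for ETNK2, DGKE, PNPLA4, MGLL and PLIN3, list genes that were not named above. ACSL6 and CNEP1R1 went the other way and passed it only by the median of probe sets. Their changes were then -0.61 and -0.62 (adjusted p = 0.00939 and 0.0229 in limma), against -0.14 and -0.31 at gene level (adjusted p = 0.185 and 0.134). Over 32 groups of 4 values, 0 had an array far enough from the other 3 to pass Dixon's limit. These groups covered only part of the genes and clusters described above, so the count does not show that no array deviated. By the median of probe sets, steroid-deplete replicate 1 of ACSL4 was at 5.19, with the other replicates at 5.91 to 6.05. For ACSL5, steroid-deplete replicate 2 was at 4.32, with the others at 3.70 to 3.78.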
